A study of Saccharomyces cerevisiae with 6 samples.

Results

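Levels of 37 genes of sulfur assimilation and methionine metabolism were examined in RNA-Seq data from *Saccharomyces cerevisiae*. The genes were chosen from a list of symbols that covers sulfate uptake and reduction, the synthesis of methionine, cysteine and S-adenosylmethionine, and their regulators. All 37 were found, by locus tag, among the 5793 features measured. The strain was BJ5464, a laboratory strain that the labels give as a URA3 deletion (ΔURA3), grown in rich medium (YPD) at 28 °C. There were 3 heat shock libraries, from cells kept at 37 °C for 20 min, and 3 optimal growth libraries, from cells left at 28 °C. Both groups came from the division of 1 culture, and 3 aliquots of each portion gave the libraries, so these are not independent cultures and hold no variation between cultures. Each feature had 1 level, the authors' mean over all 6 libraries, heat shock and optimal growth together. No value per library was at hand, so no spread, standard deviation, depth per library or test can be given, the groups were not compared, and neighbours in the order of levels cannot be judged against replicate error.

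Yeast takes up sulfate from the medium, activates it with ATP and reduces it to sulfite and then to sulfide. Sulfide is joined to a carbon chain made from aspartate to give homocysteine, which is methylated to methionine or turned into cysteine by transsulfuration, and methionine is converted to S-adenosylmethionine, the methyl donor of the cell. The activator Met4 turns on most of these genes when sulfur amino acids are short; it binds DNA through the partners Cbf1, Met28, Met31 and Met32, and the ubiquitin ligase subunit Met30 holds it in check when they are plentiful. Rich medium supplies methionine and cysteine, and cells of both temperatures enter each mean used here.

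A level is the log2 of the mean CPM, the read count scaled to a common library size (counts per 1e6 reads). Since long genes collect more reads, levels of different genes were set side by side per kilobase of coding sequence, again on the log2 scale, so that a difference of 1 is a 2-fold difference. On this scale the middle of all matched features lay at 5.86, and the middle of the 37 genes lay at 5.79. The genes were spread widely around that value. The highest, SAH1, stood at 9.63 and the lowest, STR3, at 2.36, a difference of 7.27 on the log2 scale or 154.2-fold. Of the 37 genes, 12 were in the highest quartile of all features, 6 in the second highest, 7 in the second lowest and 12 in the lowest. The genes thus lay more often at the ends of the range than in the middle, with 18 above the median of all features. Together they held 0.769% of all CPM.

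**Figure D1:**
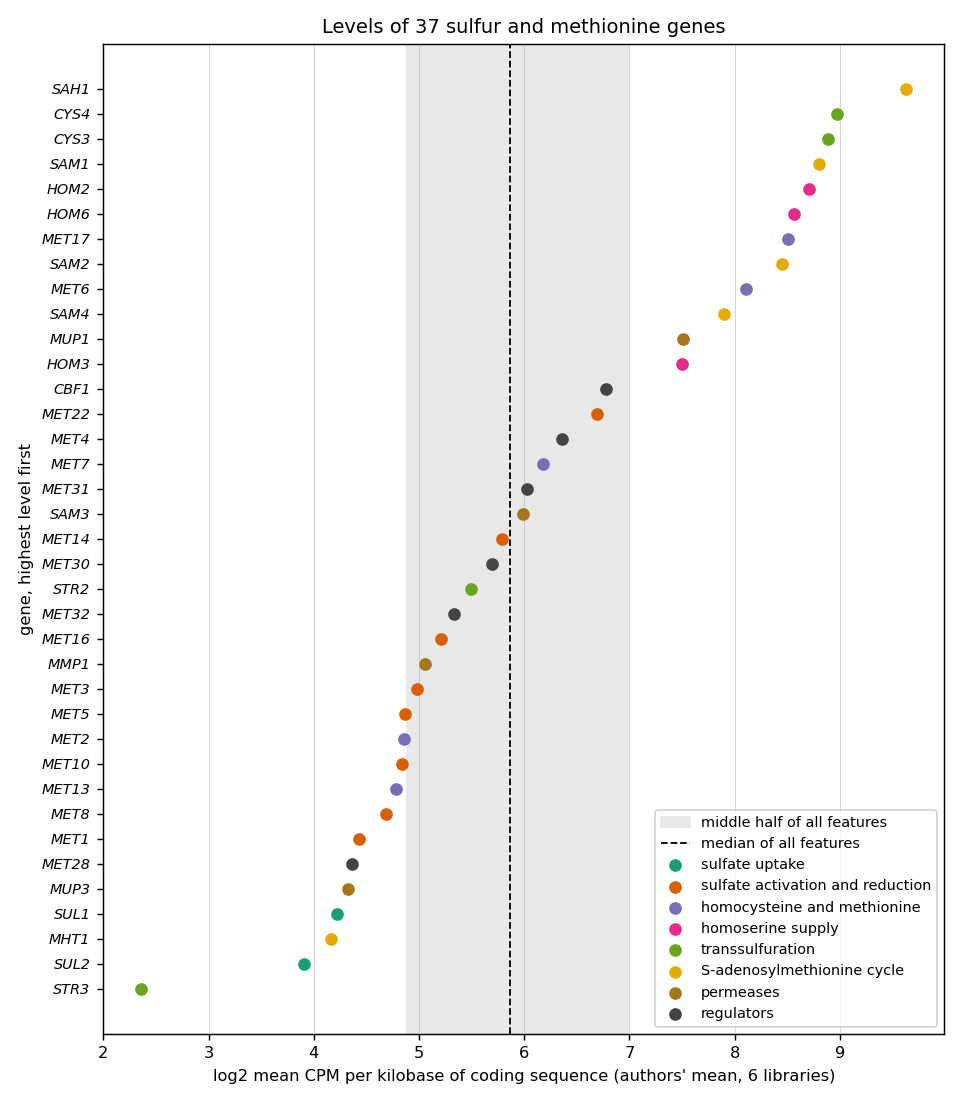
Level of each of the 37 genes as log2 mean CPM per kilobase of coding sequence (horizontal axis), ordered from the highest to the lowest and coloured by role. Each point is the authors' mean over 6 libraries, with no error available. The dashed line is the median of all matched features (5.86), and the grey band runs from 4.89 to 6.99, the 25th to the 75th percentile. SAH1 is at the top with 9.63, and STR3 stands apart at the bottom with 2.36.

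The levels differed with the place of a gene in the pathway. Most genes that take sulfate from outside the cell to sulfide were low, and most genes that supply homoserine, turn homocysteine into cysteine, or form and recycle S-adenosylmethionine were high. The 10 genes of sulfate uptake, activation and reduction had a median of 4.85 per kilobase on the log2 scale, and 1 of them was above the median of all features. The other 27 genes had a median of 6.36, with 17 above the median of all features. The 10 genes accounted for 0.0585% of all CPM and the other 27 for 0.710%. These are counts and medians beside those of all features, with no test.

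**Figure D2:**
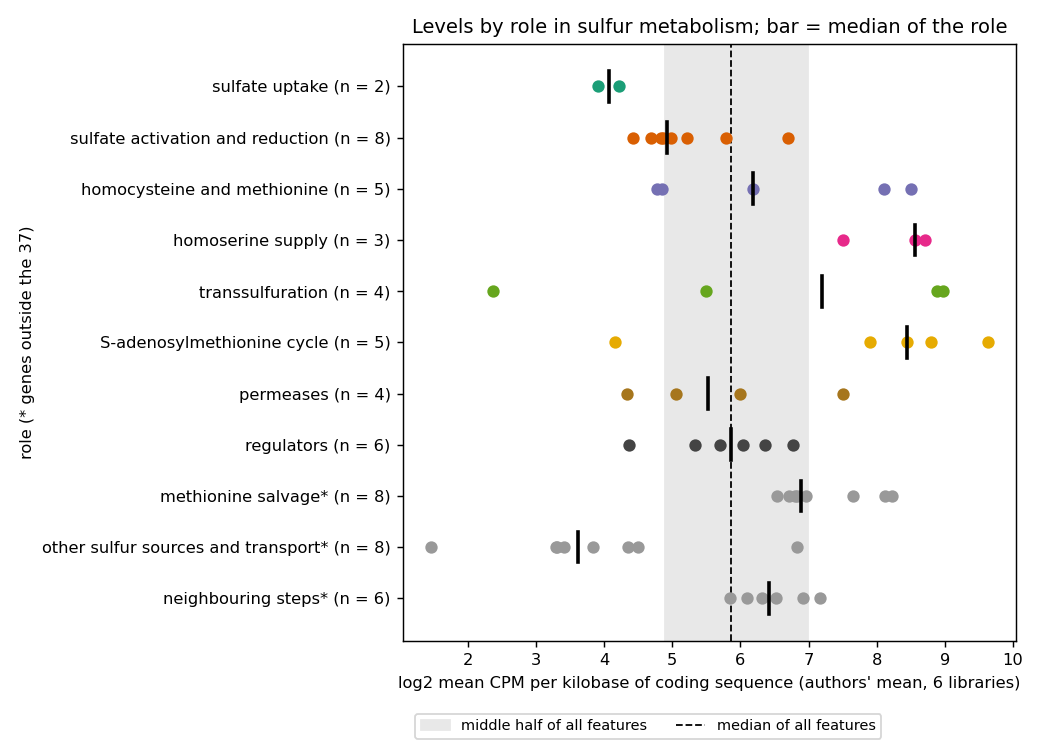
Level of each gene as log2 mean CPM per kilobase of coding sequence (horizontal axis) within each role (rows). Points are the authors' means over 6 libraries, black bars are medians of the role, and grey points are sulfur genes outside the 37. Sulfate uptake has the lowest median of the 8 roles (4.06) and homoserine supply the highest (8.56).

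Sulfate enters yeast through the high-affinity permeases Sul1 and Sul2. Their genes were both in the lowest quartile of all features. SUL1, at chrII:789235-791814 on the plus strand, had a log2 mean CPM of 5.59 and 4.22 per kilobase. SUL2, at chrXII:323544-326225 on the plus strand, had a log2 mean CPM of 5.33 and 3.91 per kilobase. The encoded proteins shared 568 identical residues, 66.1% of the shorter one, and no 50-base stretch of either gene occurred elsewhere in the genome.

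The 8 genes of sulfate activation and reduction had a median of 4.92 per kilobase on the log2 scale. They spanned 2.27 from the lowest to the highest, and 7 of the 8 lay below the median of all features. MET3, which encodes the ATP sulfurylase that opens the pathway, had a level of 4.98. MET14, the kinase for the activated sulfate, stood at 5.79, and MET16, the reductase that releases sulfite, at 5.21. Sulfite reductase is built from the products of MET5 and MET10, and these had nearly the same level, 4.86 and 4.84, a ratio of 1.02. Without division by length they differed more, with log2 mean CPM of 6.98 for MET5, whose coding sequence is 4329 bases, and 6.47 for MET10, with 3108 bases. MET1 and MET8 make siroheme, the cofactor of sulfite reductase, and stood at 4.43 and 4.69. The exception was MET22 at 6.69, whose product is a nucleotidase that clears the by-product of the reduction step. With MET22 left out, the remaining 9 genes of uptake, activation and reduction ran from 3.91 to 5.79, and 6 of them were in the lowest quartile.

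Homoserine, the precursor of homocysteine and also of threonine, is made from aspartate by the products of HOM3, HOM2 and HOM6. All 3 genes were in the highest quartile of all features. HOM2, the aspartate semialdehyde dehydrogenase, had 8.70 per kilobase, and HOM6, the homoserine dehydrogenase, had 8.56, a ratio of 1.10. HOM3 encodes aspartate kinase, the first enzyme, and had the lowest level of the group at 7.50, so that HOM2 was 2.30-fold higher.

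The 5 genes from homoserine to methionine fell into a high and a low part. MET17, the sulfhydrylase that joins sulfide to O-acetylhomoserine, stood at 8.51, and MET6, the methionine synthase, at 8.11. Both were in the highest quartile of all features. MET2, the homoserine acetyltransferase that acts just before MET17, was at 4.85, and MET13, the methylenetetrahydrofolate reductase that makes the methyl donor of MET6, was at 4.78. MET2 and MET13 were in the lowest quartile. MET17 was 12.6-fold above MET2 and MET6 was 10.1-fold above MET13. MET7, which lengthens the glutamate tail of folates, lay between them at 6.18. MET17 overlaps the annotated gene YLR302C, and it was the 1 gene of the 37 to overlap another annotated gene; the authors' use of strand in counting is not given in the sources used here.

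Transsulfuration runs in both directions in yeast, and the directions stood far apart. CYS4, the cystathionine beta-synthase, and CYS3, the cystathionine gamma-lyase, take homocysteine to cysteine. CYS4 had 8.97 per kilobase on the log2 scale and CYS3 had 8.89, a ratio of 1.06. STR2, the cystathionine gamma-synthase, and STR3, the cystathionine beta-lyase, work the other way. STR2 was at 5.49 and STR3 at 2.36. CYS4 was 11.1-fold above STR2 and CYS3 was 92.0-fold above STR3. STR3, at chrVII:154615-156012 on the minus strand, had a log2 mean CPM of 2.85, and 3.06% of all matched features were lower per kilobase. Next above it among the 37 came SUL2, 1.55 higher on the log2 scale, the widest gap between neighbours in the order.

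The S-adenosylmethionine cycle held the highest gene and 0.223% of all CPM, the largest share of the 8 roles. SAH1, at chrV:235770-237119 on the minus strand, encodes S-adenosylhomocysteine hydrolase, which clears the product of methyl transfer and returns homocysteine. Its log2 mean CPM was 10.06 and its level per kilobase 9.63, above 95.6% of all matched features and 0.66 above CYS4, the next gene. SAM1 and SAM2 encode the isozymes of S-adenosylmethionine synthetase and stood at 8.80 and 8.45, a ratio of 1.27. SAM4 and MHT1 encode homocysteine methyltransferases, with S-adenosylmethionine and S-methylmethionine, in that order, as the methyl donor. SAM4 was at 7.90 and MHT1 at 4.16, a ratio of 13.3.

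SAM1 and SAM2 are the closest copies among the 37 genes, and their sequences bear on whether reads can be told apart. The proteins were identical at 351 of 382 aligned residues, 91.9% of the shorter one. Even so, 1.82% of the 50-base words of SAM1 and 1.81% of those of SAM2 occurred elsewhere in the genome, all in the other gene. Their longest identical coding stretch was 59 bases, at chrXII:515961-516019 on the plus strand in SAM1 and chrIV:1453701-1453759 on the minus strand in SAM2 (R64, coding strand).
SAM1 and SAM2: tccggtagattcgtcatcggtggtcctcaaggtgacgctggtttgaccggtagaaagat
The 1 other gene with shared words was SAM4, with 19.9% of its 50-base words also present in YMR321C. How the authors' counting treated reads that match several genes is not given in the sources used here, so the levels of SAM4, SAM1 and SAM2 are uncertain by the share that such reads make. In the other 34 genes no 50-base word was shared.

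Permeases for the organic sulfur compounds spanned 3.18 on the log2 scale. MUP1, the high-affinity methionine permease, was in the highest quartile at 7.51, and MUP3, a low-affinity methionine permease, was in the lowest at 4.33, a ratio of 9.07. SAM3, the permease for S-adenosylmethionine, stood at 5.99 and MMP1, the permease for S-methylmethionine, at 5.06. Each of these is a neighbour of the methyltransferase that uses its substrate. SAM3 and SAM4 follow each other on the plus strand of chromosome XVI, 385 bases apart, and MMP1 and MHT1 lie head to head on chromosome XII with 342 bases between their coding starts. In the SAM3 and SAM4 pair the methyltransferase gene was 3.74-fold higher than the permease gene, and in the MMP1 and MHT1 pair the permease gene was 1.86-fold higher than the methyltransferase gene. The proteins of these pairs are related, with 70.7% identity between Mmp1 and Sam3 and 63.0% between Mht1 and Sam4.

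The 6 regulators lay near the middle of all features, with a median of 5.86 and none in the highest quartile. CBF1, a helix-loop-helix protein that also binds centromeres, was the highest at 6.77. MET4, the activator, was at 6.36. The zinc finger proteins Met31 and Met32 share 43.5% of residues, and MET31 was at 6.03 and MET32 at 5.33, a ratio of 1.62. MET30, the F-box protein of the ubiquitin ligase, stood at 5.70. MET28, a leucine zipper protein that steadies the Met4 complex on DNA, was the lowest at 4.37 and the only regulator in the lowest quartile, 3.97-fold below MET4 and 5.30-fold below CBF1.

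Other genes of sulfur metabolism, 22 outside the 37, gave a median of 6.53 per kilobase on the log2 scale. The 8 genes of methionine salvage, which rebuild methionine from methylthioadenosine, and of polyamine synthesis beside it were all above the median of all features, from SPE2 at 6.54 to ARO8 at 8.23. ARO8 and ARO9 are aromatic aminotransferases with other duties as well. Of 8 genes for other sulfur sources and for transport, 7 were in the lowest quartile, from SEO1 at 1.46 to BDS1 at 4.50. The exception was SSU1, the sulfite exporter, at 6.83. Of 6 genes of neighbouring steps, MET12, a second methylenetetrahydrofolate reductase, stood at 6.31, beside 4.78 for MET13. GSH1 and GSH2, which make glutathione, were at 5.85 and 7.16.

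The promoters of the 37 genes were then searched for the short words that the known regulators bind. The words were CACGTG, the core of Cbf1 sites, which reads the same on both strands; CTGTGG, the core of Met31 and Met32 sites, which appears as CCACAG when it lies on the other strand; and TGACTC, the core of sites of Gcn4, the activator of amino acid synthesis, which appears as GAGTCA on the other strand. Both strands were searched and none of the words overlaps another in the promoters shown. The annotation begins each of these genes at its coding start, so the window ran from 250 bases before to 50 bases after the coding start, and a longer window took the 500 bases before it. A match describes the letters only. The words were picked because known regulators bind them, so a higher share than over all genes is not an independent finding.

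CACGTG was common in these promoters. In the shorter window it occurred in 11 of the 37 genes, 29.7%, beside 2.96% of all 5706 protein-coding genes, and in the longer window in 24, 64.9%, beside 6.26%. All 8 genes of sulfate activation and reduction held it within 500 bases, as did 5 of the 6 regulators. CTGTGG was found in 8 genes in the shorter window, 21.6% beside 6.96% of all genes, and in 21 in the longer one, 56.8% beside 13.4%. Both sulfate permease genes and all 4 other permease genes held CTGTGG within 500 bases, against 2 of the 8 genes of activation and reduction. The CTGTGG of MUP3, 179 bases before its coding start, lies beyond the gap of 61 bases to YHL037C. The longer form AACTGTGG, which contains CTGTGG, occurred in 7 genes in the shorter window, 18.9% beside 0.876%, and in 15 in the longer one, 40.5% beside 1.74%. TGACTC was found in 8 genes, 21.6% beside 8.24%, and in 13, 35.1% beside 13.0%. The 8 include CYS3, whose match is not wholly before the coding start. They also include HOM2 and MUP3, whose matches lie beyond the gap to the next gene upstream. Within 500 bases, 33 genes held CACGTG or CTGTGG, 89.2% beside 18.7% of all genes, and 12 held both, 32.4% beside 0.964%. The 12 include MUP3, where both words lie beyond the gap to the next gene upstream. HOM2, SAM4, MET7 and MET31 held neither.

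**Figure D3:**
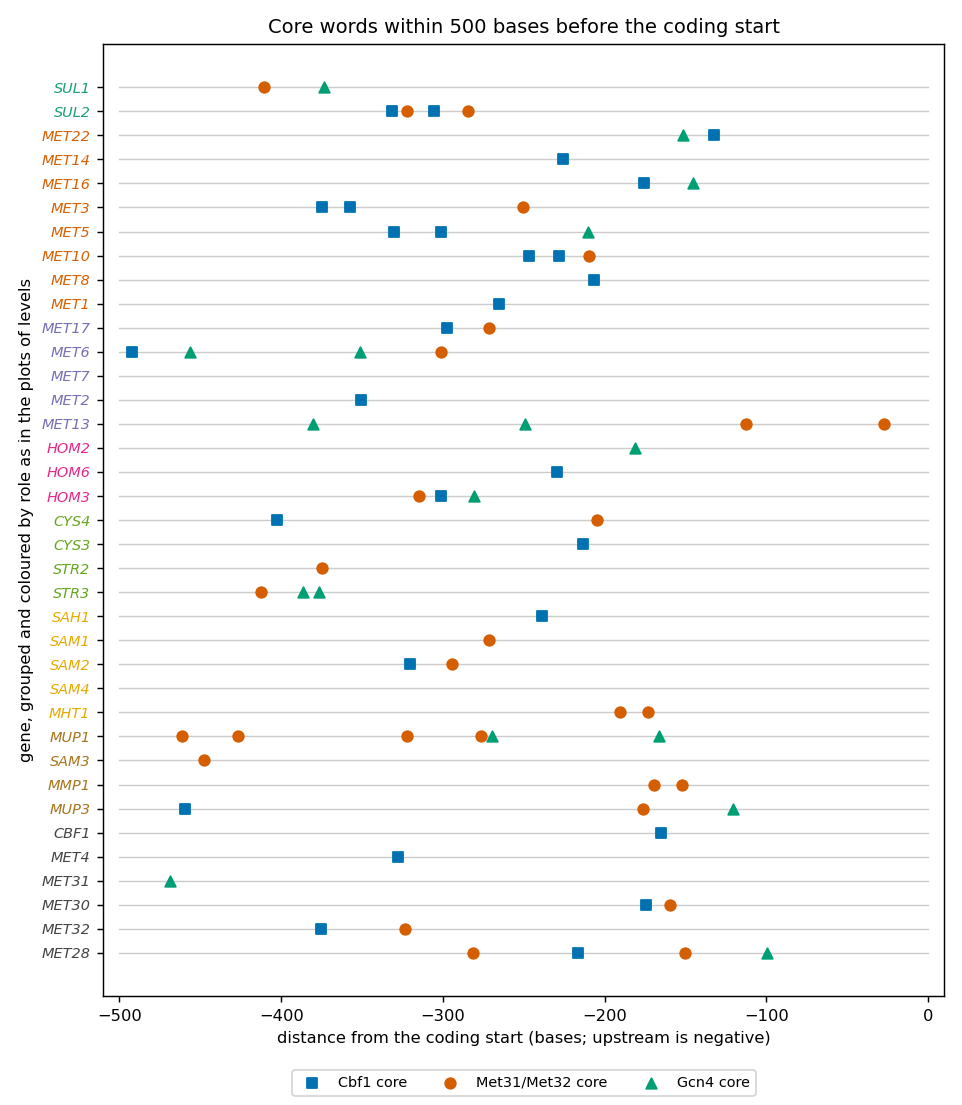
Position of the core words of Cbf1 (squares), Met31 and Met32 (circles) and Gcn4 (triangles) within 500 bases before the coding start of the 37 genes (horizontal axis, bases from the coding start), on either strand. Rows are genes, grouped and coloured by role. The 28 Cbf1 words lie 135 to 495 bases before the start and the 29 Met31 and Met32 words 30 to 464 bases before it.

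The words lay some way upstream of the coding start. The 28 sites of CACGTG ran from 135 to 495 bases before it, with a median of 302, and 20 of them lay between 150 and 350 bases. The 29 sites of CTGTGG ran from 30 to 464 bases, with a median of 279, and 21 lay between 150 and 350 bases. The 17 sites of TGACTC ran from 102 to 471 bases, with a median of 272, and 7 lay between 150 and 350 bases. No positions over all genes stand beside these counts. Since MMP1 and MHT1 share the region between them, their 2 sites of CTGTGG are the same sites counted for both genes. The gap to the next gene upstream was under 500 bases for 20 of the 37 genes, so some windows run into a neighbour. In all, 2 sites of CACGTG, 1 of CTGTGG and 4 of TGACTC lay beyond the gap. Such sites were the only ones of their word in 2 genes for CACGTG (HOM6 and MUP3) and 1 for CTGTGG (MUP3). For TGACTC this held in 3 genes (HOM2, MUP3 and MET31).

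MET30, MET10 and MET28 held both CACGTG and CTGTGG in the shorter window, 8.11% of the 37 genes beside 0.298% of all genes. Their promoters are shown from 250 to 101 bases before the coding start, 5′ to 3′ on the strand of the gene, with CACGTG and CTGTGG in capitals on either strand. SAM1 is shown beside them as the highest of the 37 genes with neither word in that window. Positions are in R64, at chrIX:268401-268550 (plus strand) for MET30, chrVI:213062-213211 (plus) for MET10, chrIX:384220-384369 (minus) for MET28 and chrXII:515012-515161 (plus) for SAM1.
MET30: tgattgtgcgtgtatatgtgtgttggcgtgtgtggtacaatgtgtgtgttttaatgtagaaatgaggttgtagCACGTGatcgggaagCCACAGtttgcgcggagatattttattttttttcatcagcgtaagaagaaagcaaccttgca
MET10: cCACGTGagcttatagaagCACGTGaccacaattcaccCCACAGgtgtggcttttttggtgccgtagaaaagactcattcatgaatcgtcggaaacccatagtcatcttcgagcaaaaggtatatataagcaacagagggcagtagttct
MET28: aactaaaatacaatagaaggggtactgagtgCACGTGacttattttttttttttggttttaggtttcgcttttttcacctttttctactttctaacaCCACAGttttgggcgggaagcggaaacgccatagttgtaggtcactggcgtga
SAM1: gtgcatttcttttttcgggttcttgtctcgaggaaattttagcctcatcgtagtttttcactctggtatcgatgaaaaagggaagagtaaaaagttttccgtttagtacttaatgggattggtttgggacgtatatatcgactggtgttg
In MET10 the CACGTG word occurs 2 times, and in MET30 and MET10 a CACGTG word is followed closely by CCACAG. The gene next upstream of MET30 ends 177 bases before its coding start, so the first part of that sequence is within YIL046W-A. The SAM1 promoter holds CTGTGG a little farther out, 274 bases before the coding start.

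Spacing was measured only in the 12 genes with both words within 500 bases, so no share over all genes can be given. Of these 12 genes, 6 had the words within 20 bases of each other. These were chosen after their positions were seen and are shown because the words stand side by side, with 4 bases on each side and both words in capitals, 5′ to 3′ on the strand of the gene. The positions in R64 are chrXII:323206-323228 (plus strand) for SUL2, chrV:258253-258279 (minus) for HOM3, chrIX:268470-268498 (plus) for MET30, chrVI:213077-213109 (plus) for MET10, chrXII:732238-732277 (plus) for MET17 and chrIV:1454752-1454791 (minus) for SAM2.
SUL2: atgtCACGTGccaCTGTGGccgt
HOM3: tctaCTGTGGctctaacCACGTGtatt
MET30: gtagCACGTGatcgggaagCCACAGtttg
MET10: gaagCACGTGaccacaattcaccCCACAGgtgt
MET17: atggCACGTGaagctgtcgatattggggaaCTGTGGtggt
SAM2: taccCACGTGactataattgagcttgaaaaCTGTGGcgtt
Only the closest pair of each gene is shown. In 5 of the 6 pairs the CACGTG word comes first and in HOM3 it comes second. SUL2 also holds CACGTG 308 bases and CTGTGG 287 bases before its coding start. Its CTGTGG at 325 bases thus also comes before a CACGTG. The distance between the words is 3 bases in SUL2, 7 in HOM3, 9 in MET30, 13 in MET10 and 20 in both MET17 and SAM2. The levels of these genes lie far apart, from 3.91 per kilobase in SUL2 to 8.51 in MET17 on the log2 scale.

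Levels were also set beside the words, with no test. In the shorter window, the 8 genes with CTGTGG had a median of 4.81 per kilobase on the log2 scale and those without it 6.18, and of the 8 only CYS4, at 8.97, was above the median of all features. The 8 include MMP1 and MHT1, which share their sites, and MUP3, whose site lies beyond the gap to the next gene upstream. For CACGTG in that window the medians were 5.79 with and 5.74 without the word. All protein-coding genes had medians in the shorter window of 5.77 with and 5.89 without CTGTGG. For CACGTG they were 6.06 with and 5.88 without the word. Genes with CACGTG within 500 bases had a median of 5.74 per kilobase and those without it 5.99. Genes with CTGTGG had a median of 5.33 and those without it 6.27. Over all protein-coding genes the medians for 500 bases were 6.23 with and 5.87 without CACGTG, and 5.77 with and 5.90 without CTGTGG. Low and high genes alike held both words within 500 bases, among them SUL2 at 3.91 and MET28 at 4.37, and MET17 at 8.51 and CYS4 at 8.97.

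The proteins that the 37 genes encode were examined for the amino acids that the pathway makes, cysteine and methionine. Shares were counted from the coding sequences, start methionine included. The median share of both residues together was 3.09% over the 37 proteins and 3.33% over all 5706. The residues went different ways, with cysteine at 1.44% beside 1.17% and methionine at 1.65% beside 2.05%. Of the 37 proteins, 9 (24.3%) were in the lowest decile of all proteins and 2 (5.41%) in the highest decile.

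The 9 proteins poorest in sulfur included the enzymes of several successive steps. Hom6 had 2 methionines and no cysteine in 359 residues, 0.557%. Met17 had 1 cysteine and 2 methionines in 444 residues, 0.676%, and Cys3 had 3 methionines and no cysteine in 394, 0.761%. Met10, a subunit of sulfite reductase, also came to 0.676%, with 2 cysteines and 5 methionines in 1035 residues, and its partner Met5 to 1.60%. Met4, the activator, had 6 methionines and no cysteine in 672 residues, 0.893%. The others were Met3 at 1.17%, Cys4 at 1.38% and Met6 at 1.56%. Of these 9, 6 had a level above the median of all features. At the other end stood Met30 with 6.09% and Mmp1 with 5.66%. Sah1, the product of the highest gene, had 11 cysteines and 12 methionines in 449 residues, 5.12%.

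**Figure D4:**
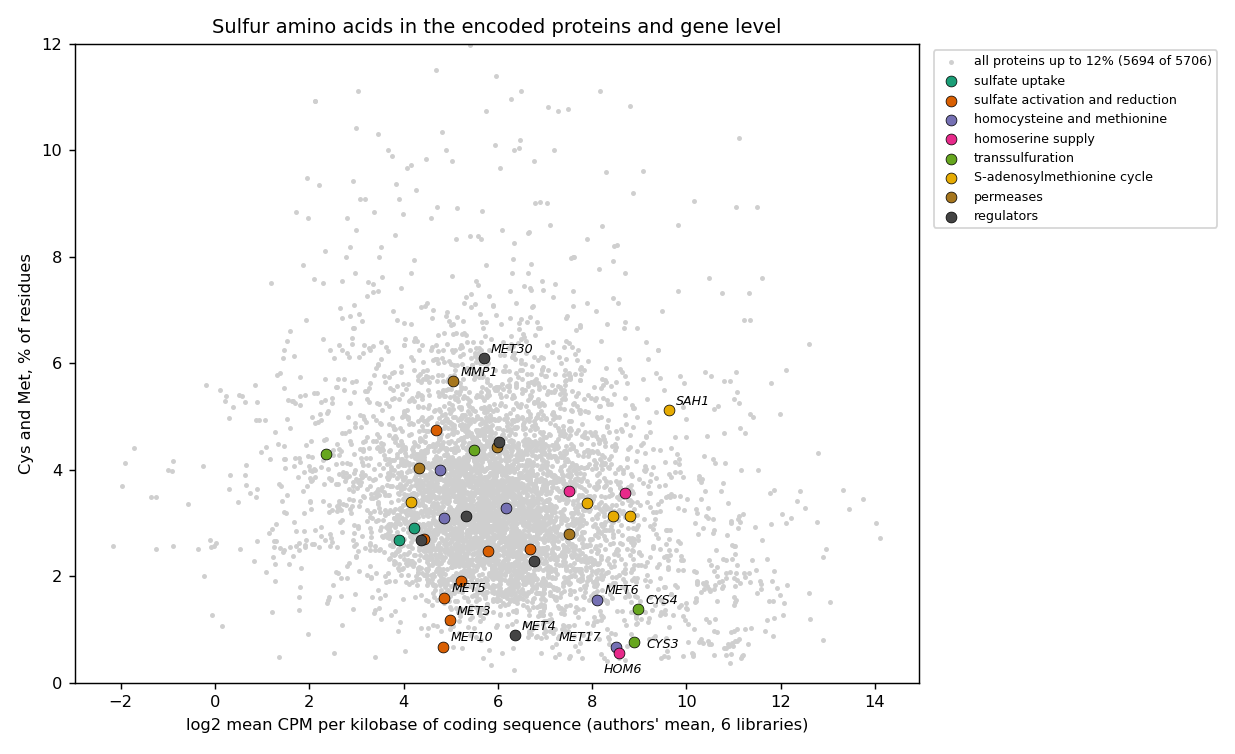
Share of cysteine and methionine in the encoded protein (vertical axis, % of residues) against the level of the gene (horizontal axis, log2 mean CPM per kilobase of coding sequence, authors' mean over 6 libraries). Coloured points are the 37 genes by role and grey points are all proteins up to 12% (5694 of 5706). HOM6, MET17 and CYS3 combine levels above 8.5 with shares under 1%, and SAH1 combines the highest level of the 37 with 5.12%.

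No cysteine at all was found in 4 of the 37 proteins (Hom6, Cys3, Met4 and Met28), 10.8% beside 9.41% of all proteins. Weighted by CPM, the mean share of cysteine and methionine was 2.64% for the 37 and 3.03% for all proteins. Among all proteins the median share was 3.63% in the lowest quartile of levels and 3.07% in the highest. Across the 37 genes the correlation between share and level was weak, with Pearson's r of -0.24 and Spearman's rho of -0.20, and across all 5706 proteins r was -0.16 and rho -0.17. These describe points from 1 mean over the same 6 libraries, and genes are not independent replicates.

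The strain label was set against its marker. URA3, the gene of uracil synthesis that the labels give as deleted, had a log2 mean CPM of 7.10 and 7.41 per kilobase, above 81.0% of all matched features. Reads were therefore assigned to it, and the labels and this value stand side by side without a test, since no value per library was at hand.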

How the data were processed

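Per the labels, RNA-Seq libraries were made from polyadenylated RNA with a stranded kit, 3 of heat shock and 3 of optimal growth. According to the methods, the authors aligned reads with kalign to the repeat-masked yeast genome and ran the Trinity edgeR pipeline; builds R64 and sacCer3 and the tools Picard and edgeR are named in the submitters' processing notes. The read counter, its use of strand and the filter on low counts are not given in the sources used here. The authors deposited 1 log2 mean CPM per feature over all 6 libraries. The 3 other value columns, the authors' own log2 fold change, p-value and adjusted p-value of heat shock against optimal growth, were not used, so the groups were not compared, and there was no value per library.

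Features were matched to the RefSeq annotation of R64 by locus tag (5715) or symbol (76), and 2 did not match. Levels were divided by coding length in kilobases (spliced or gene length for genes without a coding sequence). Shared sequence was the share of 50-base words found elsewhere in the genome on either strand. Proteins were translated from the annotated coding sequences and aligned with BLOSUM62 in Biopython. All 37 genes were named. Promoters printed were those with both CACGTG and CTGTGG in the window (at most 6) and the highest gene with neither, cut to 150 bases. The genes, lists and roles were chosen with earlier results of these data known. The counting code was checked on made-up sequences. Alternatives were other windows, word lengths, filters and summaries. Calculations were run with Biopython 1.88, pandas 2.3.3, numpy 2.4.6, Python 3.11.15 and scipy 1.17.1, and plots with matplotlib 3.10.9.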

Additional observations from a re-analysis of the deposited data

How the results depend on the processing

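The median level of the 37 genes (5.79 per kilobase on the log2 scale, -0.07 from the median of all features) did not move with a filter on low values. The mean of the log2 values was 6.19, which is 0.20 above the mean of all features and so on the other side, and without the 3 genes with shared words the median was 5.60, with a difference of -0.27. With 500 bases before the coding start, the genes with CACGTG rose in number from 11 to 24, those with CTGTGG from 8 to 21 and those with TGACTC from 8 to 13, in a window that is longer. With 100-base words 1 gene shared sequence in place of 3. The median share of cysteine and methionine was 2.80% without the start methionine; cysteine alone gave 1.44%, which is 0.27 above all proteins, and methionine alone 1.65%, with a difference of -0.40. Counts in the highest decile (8) came to 9 without division by length.

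No paired analysis was possible because each gene had a single pooled level and the libraries had none. For the same reason leaving out each replicate, edgeR, DESeq2 and a replicate block were not run. The levels are a mean over both temperatures, whose depth and error are unknown.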
